A study of Mus musculus with 10 samples.

Results

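Retinoic acid, made from vitamin A, patterns the trunk and the hindbrain of the embryo, and the genes that make it, break it down, bind it and read it out were followed here in the tail bud, the posterior growth zone from which the caudal body axis lengthens. The 10 genes were taken by symbol from a table of 38720 gene symbols: Rdh10, Dhrs3, Aldh1a2 and Aldh1a3 for synthesis and its reverse step, Cyp26a1 and Cyp26b1 for breakdown, Crabp1 and Crabp2 for binding in the cytosol, and the receptor genes Rarb and Rarg. All 10 were found, and all 10 passed the filter on low counts with 16340 tested genes. RNA was sequenced from microdissected mouse tail buds at E12.5. In the 4 Lin28a-induced libraries (replicates 2 to 5) the tissue carried TRE-Lin28a, a Lin28a transgene under doxycycline control, RLSL-rtTA, an rtTA allele that Cre switches on, and FoxD1-Cre, with doxycycline given. The 3 no-Cre libraries (replicates 6 to 8) had TRE-Lin28a and RLSL-rtTA but no Cre, again with doxycycline. For the 3 wild-type libraries (replicates 1 to 3) no transgene or drug is named. FoxD1-Cre acts where the Foxd1 driver is or was active, so cells outside that lineage need not have switched the transgene on. The labels do not say that each library came from another embryo, so the p-values measure the spread between libraries.

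In the embryo retinol is oxidised to retinaldehyde, mainly by the enzyme that Rdh10 encodes, and Dhrs3 encodes an enzyme that reduces retinaldehyde back to retinol. The retinaldehyde dehydrogenases of the Aldh1a family then make retinoic acid, and the cytochrome P450 enzymes of the Cyp26 family hydroxylate it for removal. In the elongating mouse embryo Aldh1a2 is known from the somites and presomitic trunk, while Cyp26a1 is known from the tail bud, where it keeps retinoic acid away from the posterior progenitors. Retinoic acid binds the nuclear receptors RARα, RARβ and RARγ, which sit on DNA together with RXR partners, and Rarb and Cyp26a1 are themselves classical targets of these receptors.

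The promoters of Rarb and Cyp26a1 are shown because, alone among the windows matched here, they hold the direct repeat of hexamers to which RAR and RXR partners are known to bind. RefSeq promoter windows (GRCm38.p6, 250 bases before to 50 after a start) were matched for 7 of the 10 genes, in 10 windows, and not for Rdh10, Aldh1a3 and Crabp2. Capitals mark 2 hexamers among AGGTCA or AGTTCA or GGGTCA or GGTTCA on either strand with 1, 2 or 5 bases between them. The Rarb window lies at chr14:16575427-16575726 on the minus strand, the Cyp26a1 window at chr19:37697558-37697857 on the plus strand, and both sequences run 5′ to 3′ along the gene.
Rarb: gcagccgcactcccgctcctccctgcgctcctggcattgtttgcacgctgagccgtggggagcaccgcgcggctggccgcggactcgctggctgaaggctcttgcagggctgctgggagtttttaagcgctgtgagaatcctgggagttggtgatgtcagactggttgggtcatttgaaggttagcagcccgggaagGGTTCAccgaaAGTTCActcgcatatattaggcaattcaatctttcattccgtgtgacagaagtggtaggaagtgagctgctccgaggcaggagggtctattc
Cyp26a1: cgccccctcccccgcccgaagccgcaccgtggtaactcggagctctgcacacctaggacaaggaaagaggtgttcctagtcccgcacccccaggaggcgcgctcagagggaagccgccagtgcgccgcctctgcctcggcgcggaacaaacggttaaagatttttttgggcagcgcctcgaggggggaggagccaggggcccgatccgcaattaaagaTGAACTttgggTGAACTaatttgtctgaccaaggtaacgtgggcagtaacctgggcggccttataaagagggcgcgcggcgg
Both repeats have 5 bases between the hexamers. The Rarb repeat begins 53 bases before the start and reads in the gene's own direction, and the Cyp26a1 repeat begins 32 bases before the start and reads on the opposite strand. Such a repeat with any of the 3 spacings was found in 0.588% of 32851 RefSeq promoter windows, and with a spacing of 5 in 0.0974%. A match describes letters in the window and is not a measurement of binding.

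Lin28a protein blocks maturation of let-7 microRNAs, so matches to the let-7 seed were looked up in the 3′ UTRs of the 10 genes in GENCODE M21. The seed, bases 2 to 8 of the mature RNA, is in capitals for let-7a from RefSeq, and 8 let-7 RNAs share it.
mmu-let-7a-5p: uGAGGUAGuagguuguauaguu
Rdh10 site: aaagtgaatttCTACCTCtgtatctatgt
Aldh1a3 site: agtgacctgggTACCTCAgtcatgttaaa
The 3′ UTR of Rdh10 held 1 match to bases 2 to 8, at position 949 of 2317, in capitals. The 3′ UTR of Aldh1a3 held 1 match to bases 2 to 7 followed by an A, at position 1062 of 1799. The other 8 genes held neither kind. A match to bases 2 to 8 was present in 9.6% of 20831 annotated genes with a 3′ UTR of at least 30 bases, and either kind in 15.8%. No microRNA was measured.

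The libraries held 21762668 to 39517946 counts. Lin28a, the induced gene, stood at 664, 605, 750 and 731 CPM (counts divided by a library size scaled with TMM) in Lin28a-induced replicates 2 to 5, against 5.03, 4.53 and 2.64 CPM in no-Cre replicates 6 to 8 and 6.16, 5.72 and 4.45 CPM in wild-type replicates 1 to 3. All 12 genes of a tail bud list (T, Fgf8, Fgf4, Wnt3a, Wnt5a, Gdf11, Cdx2, Cdx4, Tbx6, Msgn1, Nkx1-2 and Sall4) passed the low-count filter, and their summed level was 2285 to 2587 CPM in Lin28a-induced libraries, 2265 to 2412 CPM in no-Cre libraries and 959 to 1791 CPM in wild-type libraries, lowest in wild-type replicate 2. Sums of other tissue markers separated wild type from both other groups as well, with exceptions. Those of red blood cell markers (2720 to 8001 CPM in wild type) and of hindlimb and ventral body markers (2.94 to 4.49 CPM in wild type) overlapped with both. Surface ectoderm markers (7 genes) summed to 187 to 207 CPM in Lin28a-induced, 198 to 225 CPM in no-Cre and 561 to 697 CPM in wild-type libraries, and endothelial markers (6 genes) to 251 to 350, 272 to 312 and 63.6 to 128 CPM in the same order. Mitochondrially encoded genes took 0.446 to 0.690% of counts in Lin28a-induced, 0.525 to 0.610% in no-Cre and 1.85 to 2.69% in wild-type libraries. None of these listed markers was at 0 in every library. Over all tested genes the log2 fold changes ran from -11.4 to 9.02 in both comparisons with wild type. Wild type differs from the other groups in the transgenes and doxycycline that the labels name only for those groups. It also differs in library depth, and any difference in collection or genetic background would come at the same time. These cannot be told apart. In bulk tissue, fewer cells of a type and less RNA per cell cannot be told apart either.

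Crabp2 had by far the highest level per exon length, and Rarb was barely detected. On a scale of CPM per kb of GENCODE M21 exon, the mean over all 10 libraries was 125 for Crabp2, 38.3 for Aldh1a2, 32.2 for Crabp1, 26.0 for Rarg, 14.7 for Cyp26a1, 14.3 for Dhrs3, 7.87 for Rdh10, 3.89 for Cyp26b1, 0.673 for Aldh1a3 and 0.174 for Rarb. The Lin28a-induced and no-Cre libraries kept this order of group means. In wild-type libraries Rarg stood above Crabp1 (27.0 against 18.02 CPM per kb) and Dhrs3 above Cyp26a1 (15.8 against 10.05 CPM per kb). Neighbours whose ranges over libraries overlapped were Aldh1a2 and Crabp1 as well as Crabp1 and Rarg in the Lin28a-induced group, and Aldh1a2 and Crabp1 in the no-Cre group. In the wild-type order they were Aldh1a2 and Rarg, Rarg and Crabp1, Crabp1 and Dhrs3, and Cyp26a1 and Rdh10. The plot of levels per exon length shows the steps between the genes. Between the paired enzymes, Aldh1a2 exceeded Aldh1a3 and Cyp26a1 exceeded Cyp26b1 per kb in the means of all 3 groups.

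**Figure D1:**
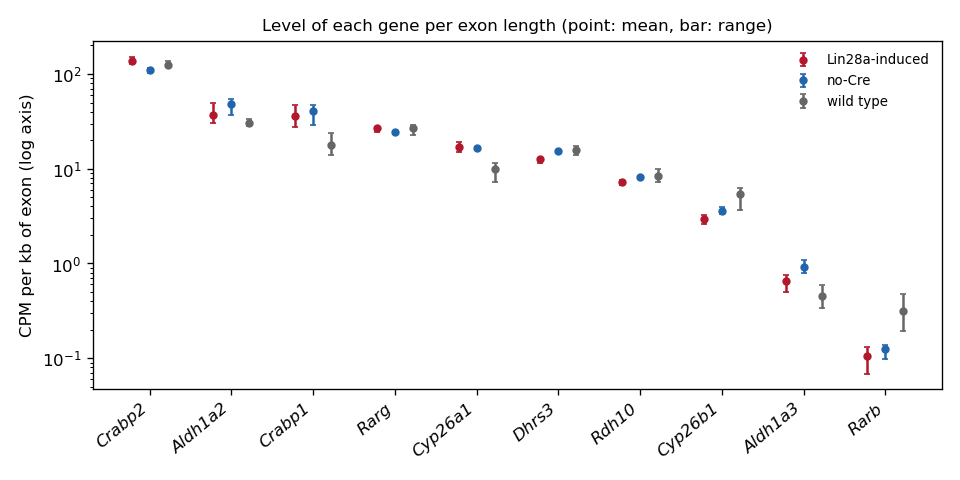
Level of each of the 10 genes in CPM per kb of exon on a log axis, for Lin28a-induced (n = 4), no-Cre (n = 3) and wild-type (n = 3) libraries; points are group means and bars the range over libraries. Crabp2 is highest in every group, at 110 to 137 CPM per kb in the group means, and Rarb lowest, at 0.106 to 0.314 CPM per kb.

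Against the no-Cre libraries, which share the doxycycline treatment, the Lin28a-induced libraries had more Crabp2 RNA and no other call among the 10 genes. These groups differ in FoxD1-Cre, in the rtTA that it switches on and in induced Lin28a at once, and the 3 cannot be told apart. Crabp2 rose, 1 of 10 genes, and 0 fell, where 2.91% of all tested genes were called, 1.76% higher and 1.15% lower (edgeR quasi-likelihood test, Benjamini-Hochberg adjusted p under 0.05 over all tested genes). That background rests on 476 genes, and it ranged from 104 genes without no-Cre replicate 7 to 1482 without wild-type replicate 2. At an unadjusted p under 0.05, 1 gene was higher (Crabp2) and 2 were lower (Dhrs3 and Aldh1a3). DESeq2 called Crabp2 higher and Dhrs3 lower, and limma-voom called Crabp2. The median log2 fold change of the 10 genes was -0.20, beside -0.000824 over all tested genes. The libraries of both groups did not overlap for 6 of the 10 genes, 2 higher and 4 lower, where 23.4% of all tested genes did not overlap. For Cyp26b1 and Rarg the gap was very narrow, with nearest libraries of the groups at 17.58 and 17.60 CPM and at 104.73 and 104.69 CPM. Neural tube markers (8 genes) summed to 348 to 368 CPM in Lin28a-induced and 403 to 433 CPM in no-Cre libraries, and notochord and floor plate markers (5 genes) to 34.99 to 40.04 CPM in Lin28a-induced and 45.5 to 53.2 CPM in no-Cre libraries. Nes alone averaged 300 CPM in Lin28a-induced and 344 CPM in no-Cre libraries, most of the neural tube sum. Of the 8 neural tube genes 5 passed the low-count filter, with 4 lower, 1 of them called, and 1 higher. All 5 notochord and floor plate genes were lower, with 0 called. The part of these markers in the differences below was not tested.

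Crabp2 (chr3:87948666-87953376, GRCm38 throughout) encodes the cytosolic protein that hands retinoic acid on to its receptors. Its level was 170, 168, 199.6 and 184 CPM in Lin28a-induced replicates 2 to 5, against 146, 153 and 136 CPM in no-Cre replicates 6 to 8. Every Lin28a-induced library lay above every no-Cre library. The difference on the log2 scale was 0.32 ± 0.07 (SE; adjusted p = 0.0318, edgeR). The direction held in every fit with 1 library left out, at 0.27 to 0.36, but the call was lost without Lin28a-induced replicate 4 or 5, or without no-Cre replicate 6, 7 or 8, with adjusted p-values in edgeR up to 0.176. Crabp1 (chr9:54764748-54773110), which encodes the related protein linked to retinoic acid breakdown and storage, had 22.4, 26.5, 29.6 and 37.4 CPM in Lin28a-induced replicates and 37.6, 37.9 and 23.5 CPM in no-Cre replicates. These groups overlapped, and the log2 fold change was -0.19 ± 0.24 with a 95% interval of -0.73 to 0.36 (adjusted p = 0.780, edgeR).

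The genes of retinaldehyde and retinoic acid synthesis, and Dhrs3 of the reverse step, were lower on average in the Lin28a-induced libraries. None of them passed the test. Rdh10 (chr1:16105774-16133734), which encodes the retinol dehydrogenase of the first step, had 30.4, 31.4, 27.9 and 31.0 CPM in Lin28a-induced replicates, against 34.9, 33.8 and 34.3 CPM in no-Cre replicates. The groups did not overlap, and the log2 fold change was -0.18 ± 0.09 (adjusted p = 0.331, edgeR). Its 3′ UTR holds the let-7 match to bases 2 to 8 shown above. Dhrs3 (chr4:144892827-144928209), the reductase of the reverse step, had 38.4, 33.4, 36.8 and 38.0 CPM in Lin28a-induced replicates, against 44.3, 43.6 and 45.8 CPM in no-Cre replicates. All Lin28a-induced libraries lay below all no-Cre libraries, and the log2 fold change of -0.28 ± 0.07 stood just outside the threshold (adjusted p = 0.0572, edgeR). It passed in edgeR without wild-type replicate 2 (adjusted p = 0.00621) or wild-type replicate 3 (adjusted p = 0.0312). These libraries belong to neither group and enter this comparison through the filter, the scaling and the shared estimate of spread.

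Aldh1a2 (chr9:71215789-71296243), the retinaldehyde dehydrogenase of the embryonic trunk, had 69.6, 81.2, 75.1 and 112 CPM in Lin28a-induced replicates, against 119, 122 and 83.3 CPM in no-Cre replicates. Lin28a-induced replicate 5 was high and no-Cre replicate 8 low for their groups, so that the groups overlapped. Somite and sclerotome markers (8 genes) summed to 584, 633, 713 and 749 CPM in Lin28a-induced replicates and 822, 876 and 634 CPM in no-Cre replicates, with the same libraries high and low, against 419 to 556 CPM in wild-type libraries. Between Lin28a-induced and no-Cre libraries 3 of these 8 genes were higher and 5 lower, with 0 called in edgeR. The part of these markers in the Aldh1a2 values was not tested. On the log2 scale the difference was -0.36 ± 0.19 with a 95% interval of -0.78 to 0.07 (adjusted p = 0.406, edgeR). Aldh1a3 (chr7:66390890-66427517), which catalyses the same step and is known from the eye and nasal region, had 2.77, 3.46, 2.29 and 3.51 CPM in Lin28a-induced replicates, against 4.12, 5.03 and 3.64 CPM in no-Cre replicates. Its groups did not overlap, and its 3′ UTR holds the shorter let-7 match shown above. Its log2 fold change was -0.50 ± 0.21 (adjusted p = 0.251, edgeR). Of its transcript sequence in 32-base words, read in the sense direction, 2.07% also occurs in transcripts of other annotated genes. For the other 9 genes the share was 0%, which leaves out overlap with genes on the opposite strand, as for Rarb below.

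Neither breakdown enzyme passed the test between Lin28a-induced and no-Cre libraries. Cyp26a1 (chr19:37697798-37701536), the retinoic acid hydroxylase of the tail bud, had 38.1, 34.1, 31.0 and 29.96 CPM in Lin28a-induced replicates, against 32.4, 32.5 and 33.3 CPM in no-Cre replicates. The no-Cre libraries lay within the range of the Lin28a-induced libraries. Its fitted log2 fold change was 0.02 ± 0.13 with a 95% interval of -0.27 to 0.31 (adjusted p = 0.963, edgeR). Cyp26b1 (chr6:84571414-84593908), the second hydroxylase, known from limb bud and hindbrain, had 17.58, 15.0, 17.2 and 14.1 CPM in Lin28a-induced replicates, against 17.60, 19.4 and 21.0 CPM in no-Cre replicates. The groups almost touched at Lin28a-induced replicate 2 and no-Cre replicate 6, and the log2 fold change was -0.28 ± 0.17 (adjusted p = 0.458, edgeR).

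Of the receptor genes, Rarg (chr15:102234938-102257517), the receptor of the tail bud and presomitic mesoderm, had 115, 105, 119 and 115 CPM in Lin28a-induced replicates, against 101, 104.6 and 104.7 CPM in no-Cre replicates. Lin28a-induced replicate 3 lay only just above the highest no-Cre library. Its log2 fold change was 0.13 ± 0.08 (adjusted p = 0.456, edgeR). Rarb (chr14:16430839-16819156) rested on 11, 18, 22 and 26 counts in Lin28a-induced replicates and 20, 24 and 21 counts in no-Cre replicates, or 0.363 to 0.690 CPM and 0.521 to 0.721 CPM. These groups overlapped, with a log2 fold change of -0.21 ± 0.37 and a 95% interval of -0.9997 to 0.588 (adjusted p = 0.858, edgeR).

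**Figure D2:**
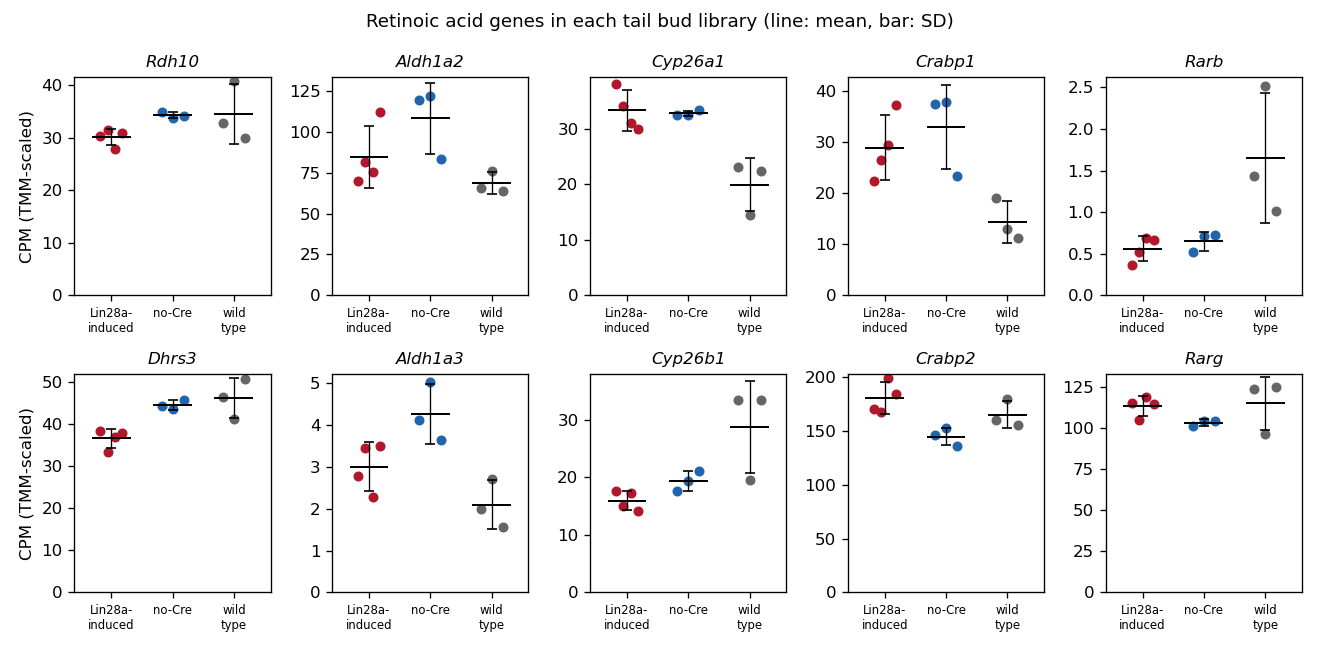
CPM of each of the 10 genes in every library, with Lin28a-induced, no-Cre and wild-type libraries from left to right. Columns hold Rdh10 with Dhrs3 of the reverse step, then Aldh1a2 and Aldh1a3 for synthesis, then breakdown, binding and receptors. Lines are means and bars SD (n = 4, 3 and 3). Crabp2 lies higher in Lin28a-induced than in no-Cre libraries (181 against 145 CPM), and for Cyp26a1, Crabp1 and Rarb the wild-type libraries lie apart from both other groups.

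Set against wild type, both doxycycline-treated groups had more Cyp26a1 and Crabp1 and less Cyp26b1 and Rarb RNA. The Lin28a-induced and the no-Cre comparison use the same 3 wild-type libraries, so their values are given side by side and do not support each other. In Lin28a-induced libraries 2 of the 10 genes rose and 3 fell against wild type, where 49.3% of all tested genes were called, 24.3% higher and 25% lower. In no-Cre libraries 4 rose and 2 fell, where 42.5% of all tested genes were called, 21% higher and 21.4% lower. The groups did not overlap for 5 of the 10 genes (Lin28a-induced) and 6 of the 10 (no-Cre), where 49.3% and 52% of all tested genes did not overlap. These shares are near the background, so the number of calls says nothing particular about the 10 genes. Their median log2 fold change was 0.05 (Lin28a-induced) and -0.03 (no-Cre), beside -0.02 over all tested genes in either comparison.

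Cyp26a1 was at 23.0, 14.4 and 22.4 CPM in wild-type replicates 1 to 3, below every library of the other groups. On the log2 scale it rose by 0.74 ± 0.14 in Lin28a-induced libraries (1.67-fold, adjusted p = 0.000938, edgeR) and by 0.72 ± 0.15 in no-Cre libraries (1.64-fold, adjusted p = 0.00227, edgeR). Wild-type replicate 2 was the lowest library and also had the lowest tail bud sum, 959 CPM against 1762 and 1791 CPM in wild-type replicates 1 and 3. Without it the values were 0.55 and 0.53, and both calls held. The part of the tail bud markers in this difference was not tested.

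Cyp26b1 moved the other way, with 33.4, 19.5 and 33.4 CPM in wild-type replicates 1 to 3. Every Lin28a-induced library lay below every wild-type library, whereas the no-Cre libraries reached 21.0 CPM and overlapped with wild-type replicate 2. The log2 fold change was -0.85 ± 0.17 in Lin28a-induced libraries (adjusted p = 0.00132, edgeR) and -0.57 ± 0.18 in no-Cre libraries (adjusted p = 0.0226, edgeR). The no-Cre call was lost without no-Cre replicate 6 or 7, or without wild-type replicate 1 or 3, with an adjusted p in edgeR of up to 0.0862. It was also lost with every library kept, with no filter on low counts (adjusted p = 0.0718, edgeR) and with a sex covariate (adjusted p = 0.0523, edgeR). The ratio of Cyp26a1 to Cyp26b1 counts within each library does not depend on scaling between libraries. It was 2.17, 2.28, 1.80 and 2.13 in Lin28a-induced replicates, 1.84, 1.67 and 1.58 in no-Cre replicates and 0.690, 0.740 and 0.670 in wild-type replicates. The 3 wild-type ratios lay close together, although wild-type replicate 2 was the lowest of its group for both genes. An exact two-sided permutation test gave p = 0.0286 for Lin28a-induced against wild type, the smallest p that 4 against 3 libraries allow, and 0.129 after Benjamini-Hochberg adjustment over the 9 ratio tests made. The p was 0.1 for no-Cre against wild type, the smallest that 3 against 3 libraries allow, and 0.0857 for Lin28a-induced against no-Cre by the same exact test.

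**Figure D3:**
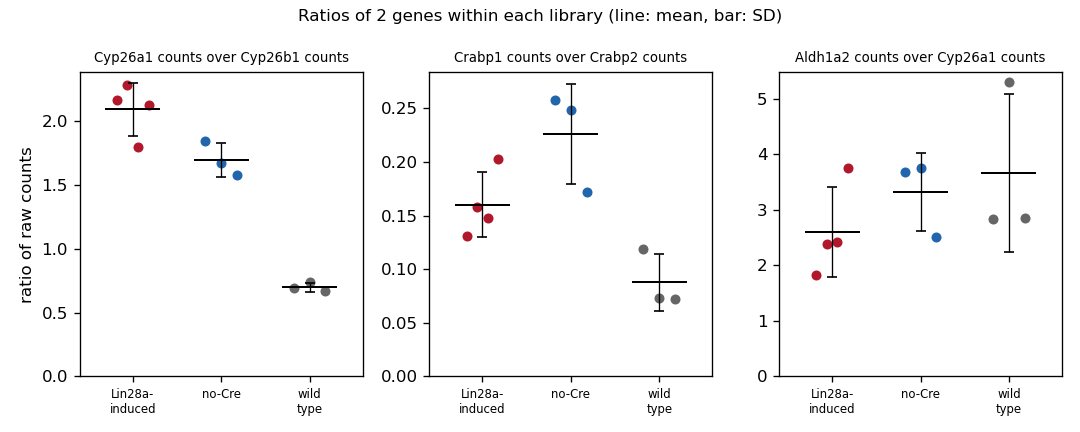
Ratio of raw counts of Cyp26a1 over Cyp26b1, Crabp1 over Crabp2 and Aldh1a2 over Cyp26a1 within each library, with Lin28a-induced (n = 4), no-Cre (n = 3) and wild-type (n = 3) libraries from left to right; lines are means and bars SD. The ratio of the breakdown enzymes averages 2.09 and 1.70 in the Lin28a-induced and no-Cre groups and 0.700 in wild type.

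Wild-type replicates 1 to 3 held 19.0, 13.1 and 11.2 CPM of Crabp1. The libraries of both other groups lay above all of them. It rose by 1.001 ± 0.26 on the log2 scale in Lin28a-induced libraries (adjusted p = 0.0109, edgeR) and by 1.19 ± 0.27 in no-Cre libraries (adjusted p = 0.00743, edgeR). Without wild-type replicate 2 the first of these was 0.93 with an adjusted p of 0.0652 in edgeR. For Crabp2 wild-type replicates held 160, 179 and 156 CPM, and the log2 fold change was 0.13 ± 0.07 in Lin28a-induced (adjusted p = 0.155, edgeR) and -0.19 ± 0.08 in no-Cre libraries (adjusted p = 0.0602, edgeR). The Lin28a-induced value ran from 0.076 to 0.19 with 1 library left out and passed without wild-type replicate 2 (adjusted p = 0.0333, edgeR). The no-Cre value passed without Lin28a-induced replicate 4 (adjusted p = 0.0484, edgeR) or wild-type replicate 3 (adjusted p = 0.0411, edgeR), and with a filter of 1 CPM in 3 libraries (adjusted p = 0.0416, edgeR). The ratio of Crabp1 to Crabp2 counts averaged 0.160 ± 0.0305 in Lin28a-induced, 0.226 ± 0.0468 in no-Cre and 0.0879 ± 0.0267 in wild-type libraries (SD, n = 4, 3 and 3), with no overlap between wild type and either other group. The exact two-sided permutation p was 0.0286 for Lin28a-induced against wild type (0.129 adjusted over the 9 ratio tests), 0.1 for no-Cre against wild type and 0.114 for Lin28a-induced against no-Cre.

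The aldehyde dehydrogenases were higher in no-Cre than in wild-type libraries. Aldh1a2 was at 65.4, 76.3 and 63.7 CPM in wild-type replicates 1 to 3, below all no-Cre libraries and within reach of the Lin28a-induced ones. The log2 fold change was 0.31 ± 0.19 in Lin28a-induced (adjusted p = 0.223, edgeR) and 0.66 ± 0.20 in no-Cre libraries (adjusted p = 0.0299, edgeR). The no-Cre call was lost without no-Cre replicate 6 or 7, or without any 1 of the 3 wild-type replicates, with an adjusted p in edgeR of up to 0.0862, and with no filter on low counts (adjusted p = 0.0635, edgeR). The somite and sclerotome sums given above were higher in each no-Cre than in each wild-type library. Of their 8 genes, though, 4 were higher and 4 lower, with 3 called higher and 2 called lower in edgeR. Meox1 had the largest share of the sums, at 366 CPM in no-Cre and 218 CPM in wild-type libraries on average. The part of these markers was not tested. Wild-type replicates held 1.99, 2.72 and 1.56 CPM of Aldh1a3. The gene stood at 0.52 ± 0.23 on the log2 scale in Lin28a-induced libraries (adjusted p = 0.0725, edgeR) and rose by 1.02 ± 0.24 in no-Cre libraries (adjusted p = 0.00381, edgeR). Without Lin28a-induced replicate 4 or wild-type replicate 2, the Lin28a-induced value passed too, with adjusted p = 0.0427 and 0.0183 in edgeR. The difference between the Lin28a-induced and no-Cre groups themselves, given above, did not pass for either enzyme. Aldh1a2 counts over Cyp26a1 counts, a ratio of synthesis to breakdown transcripts, averaged 2.59 ± 0.814 in Lin28a-induced, 3.31 ± 0.703 in no-Cre and 3.66 ± 1.41 in wild-type libraries (SD, n = 4, 3 and 3). The groups overlapped, and the exact two-sided permutation p was 0.286 for Lin28a-induced and 0.8 for no-Cre against wild type.

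Of the enzymes between retinol and retinaldehyde, Dhrs3 fell in Lin28a-induced libraries against wild type. Wild-type levels of Dhrs3 were 46.6, 41.3 and 50.8 CPM, above all Lin28a-induced libraries and on both sides of the no-Cre libraries. Its log2 fold change was -0.33 ± 0.07 in Lin28a-induced (adjusted p = 0.00209, edgeR) and -0.05 ± 0.08 in no-Cre libraries, with a 95% interval of -0.22 to 0.12. Those of Rdh10 were 32.9, 40.9 and 29.9 CPM, a range that held every no-Cre library. Its log2 fold change was -0.20 ± 0.09 in Lin28a-induced (adjusted p = 0.0874, edgeR) and -0.01 ± 0.10 in no-Cre libraries, with a 95% interval of -0.22 to 0.20. Without wild-type replicate 3 the first of these passed at -0.29 (adjusted p = 0.0137, edgeR), and without wild-type replicate 2, the highest library, it was -0.061 (adjusted p = 0.508, edgeR).

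Rarb was the receptor gene that differed against wild type, at the lowest level of the 10 genes. It rested on 36, 62 and 22 counts, or 1.43, 2.52 and 1.01 CPM, in wild-type replicates 1 to 3, above all libraries of the other groups. The log2 fold change was -1.55 ± 0.35 in Lin28a-induced (adjusted p = 0.00227, edgeR) and -1.35 ± 0.37 in no-Cre libraries (adjusted p = 0.0107, edgeR). Wild-type replicate 2 was highest, and without it the values were -1.12, still called, and -0.91, with an adjusted p of 0.0625 in edgeR. The no-Cre call was also lost without no-Cre replicate 6 (adjusted p = 0.0509, edgeR). Of the 5265 exon bases of Rarb, 1793 (34.1%) lie opposite exons of Top2b (chr14:16365179-16435462), a DNA topoisomerase gene on the other strand. The libraries are directional, but how strand entered the counting is not given in the sources used here. Whether reads of the 2 genes were kept apart there is therefore not known. Rarb counts were 0.0793 to 0.130% of Top2b counts in Lin28a-induced, 0.107 to 0.145% in no-Cre and 0.210 to 0.604% in wild-type libraries. Top2b itself averaged 508 ± 34.2 CPM in Lin28a-induced, 499.7 ± 16.6 CPM in no-Cre and 460.3 ± 37.9 CPM in wild-type libraries (SD, n = 4, 3 and 3), and it did not pass in any of the 3 comparisons.

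Wild-type levels of Rarg were 124, 96.6 and 125 CPM, with replicate 2 apart from the other 2. The log2 fold change was -0.02 ± 0.08 in Lin28a-induced libraries, with a 95% interval of -0.19 to 0.15, and -0.15 ± 0.09 in no-Cre libraries (adjusted p = 0.162, edgeR). Without wild-type replicate 2 both passed, at -0.14 (adjusted p = 0.0369, edgeR) and -0.27 (adjusted p = 0.00105, edgeR). For the 10 genes as a whole, leaving out wild-type replicate 2 gave 7 calls for Lin28a-induced and 5 for no-Cre libraries, in place of 5 and 6. The surface ectoderm, endothelial and mitochondrial differences given above move with every comparison against wild type, and their part in these results was not tested.

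**Figure D4:**
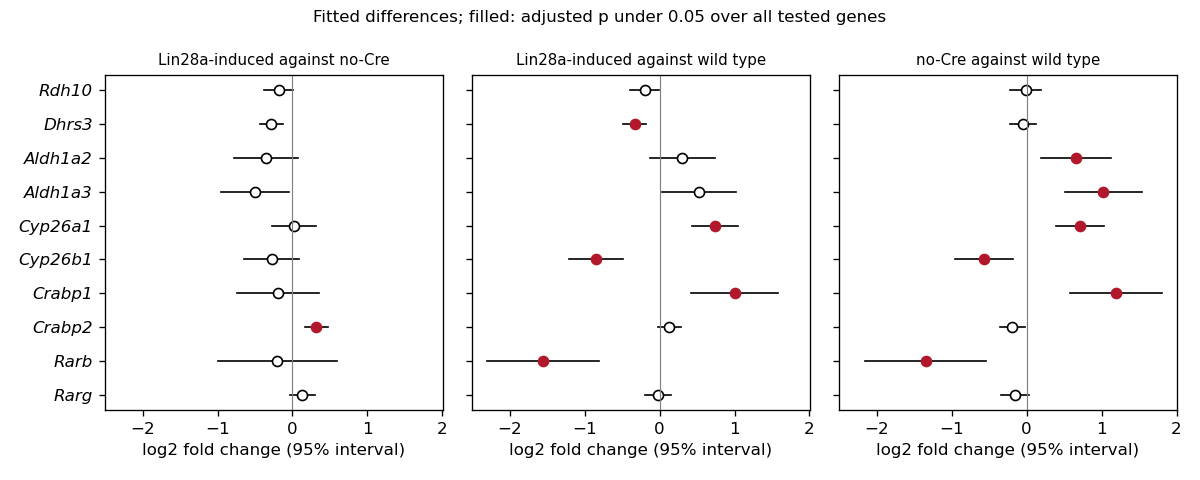
Log2 fold change of each of the 10 genes with its 95% interval in the 3 comparisons, from edgeR's quasi-likelihood fit; filled points have an adjusted p under 0.05 over all 16340 tested genes. Crabp2 is the filled point of the Lin28a-induced against no-Cre panel (0.32), and Rarb shows the longest intervals.

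Other genes of retinoid handling were looked at as a list of 26, of which 25 were matched and 19 passed the low-count filter. Between Lin28a-induced and no-Cre libraries 0 were higher and 1 was lower in edgeR, also with no further gene at an unadjusted p under 0.05. Over all tested genes 2.91% were called. The 1 call was lost without Lin28a-induced replicate 3, 4 or 5, or without no-Cre replicate 6 or 7. Against wild type, 3 were higher and 6 lower in Lin28a-induced libraries, and 3 higher and 5 lower in no-Cre libraries. Over all tested genes 49.3% and 42.5% were called in these comparisons, so the number of calls says nothing particular about this list. Stra6, which encodes the membrane receptor for retinol uptake, averaged 99.6 CPM in Lin28a-induced, 95.9 CPM in no-Cre and 53.8 CPM in wild-type libraries. The log2 fold changes were 0.89 (adjusted p = 0.000106, edgeR) and 0.83 (adjusted p = 0.000347, edgeR). Adh7 and Adh1, alcohol dehydrogenases that can oxidise retinol, were lower. Adh7 averaged 0.259 CPM in Lin28a-induced, 0.158 CPM in no-Cre and 3.37 CPM in wild-type libraries, and Adh1 averaged 1.10, 1.05 and 3.52 CPM in the same order, beside the surface ectoderm sums given above. Fabp5, a fatty acid-binding protein gene whose product also binds retinoic acid, fell by 0.47 in Lin28a-induced and by 0.59 in no-Cre libraries on the log2 scale (adjusted p = 9.16e-05 and 3.93e-05, edgeR).

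The other receptor and cofactor genes were a list of 17, with 16 tested. Between Lin28a-induced and no-Cre libraries edgeR called 0, with 2 at an unadjusted p under 0.05 (both higher), while DESeq2 called 1 and limma-voom 0. Without wild-type replicate 2 edgeR called 2. Rxrb, an RXR partner gene, had the smallest p, at 84.3 CPM in Lin28a-induced and 76.0 CPM in no-Cre libraries (adjusted p = 0.0892, edgeR). Against wild type 7 were higher and 1 lower in Lin28a-induced libraries, and 6 higher and 1 lower in no-Cre libraries. The total number of calls is near the shares of 49.3% and 42.5% over all tested genes. Rere and Zfp423, which encode cofactors of retinoic acid receptors, rose by 0.57 and 0.68 in Lin28a-induced and by 0.37 and 0.66 in no-Cre libraries on the log2 scale (adjusted p = 5.88e-05, 9.33e-05, 0.00333 and 0.00026, edgeR).

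Genes known to respond to retinoic acid were a list of 16, of which 15 were matched and 12 were tested. Between Lin28a-induced and no-Cre libraries 1 was higher and 0 were lower in edgeR, with 2 higher and 2 lower at an unadjusted p under 0.05. Over all tested genes 2.91% were called. The 1 call was lost without Lin28a-induced replicate 4 or 5, or without no-Cre replicate 6, 7 or 8. Against wild type 4 were higher and 2 lower in Lin28a-induced libraries, and 5 higher and 2 lower in no-Cre libraries. Beside these stand shares of 49.3% and 42.5% called over all tested genes. Cdx1, a caudal-type homeobox gene that responds to retinoic acid and Wnt, averaged 3.68 CPM in Lin28a-induced, 2.04 CPM in no-Cre and 0.263 CPM in wild-type libraries, with 4 to 10 counts in each of the last. Hoxb1 averaged 45.0, 47.2 and 17.0 CPM in the same order of groups. Of the 12 tail bud genes themselves edgeR, DESeq2 and limma-voom called 0 between Lin28a-induced and no-Cre libraries, with 0 at an unadjusted p under 0.05 in edgeR. Without wild-type replicate 2 edgeR called 3, and without wild-type replicate 3 it called 1. Against wild type 5 of the 12 were higher in Lin28a-induced and 5 in no-Cre libraries, among them Cdx2 and Sall4 in both, and 0 were lower. Over all tested genes 24.3% and 21% were called higher in these comparisons, and 25% and 21.4% lower.

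The pattern over libraries was compared between each gene and 13597 tested genes with a mean of at least 1 CPM, as Pearson's r of log2 CPM over the 10 libraries, given as a description. The libraries fall into the 3 groups, so r takes in differences between groups as well as between single libraries. For Cyp26a1 the genes with the highest r were Slc39a11 (0.991), Zkscan17 (0.986) and Thoc3 (0.984), and for Cyp26b1 they were Fam20a (0.984), 2410066E13Rik (0.978) and Tceal1 (0.977). Sc4mol (0.957), Acss1 (0.950) and Fhod3 (0.950) were nearest to Aldh1a2, and A330035P11Rik (0.966), Trim62 (0.949) and Pcdh9 (0.939) to Aldh1a3. Lss (0.969) and Fam103a1 (0.961) were nearest to Crabp1, and Tfam (0.947), Zik1 (0.946) and Ormdl1 (0.930) to Crabp2. For the other 4 genes the nearest were Dzip3 for Rdh10 (0.931), Mpst for Dhrs3 (0.955), Frmd4b for Rarb (0.973, of 13598 genes) and Otud3 for Rarg (0.963). No other member of the set was among the 3 nearest genes of any of the 10.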

How the data were processed

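The values are raw counts for each gene symbol and library, used as deposited by the authors. Per the labels' protocols, directional libraries (NEB Ultra kit) were sequenced as single reads on a NextSeq 500. The submitters' processing notes name mm10, STAR 2.3.1z4, featureCounts and, for no particular step, DESeq2. The annotation used, how strand entered the counting and how multiply aligned reads were treated are not given in the sources used.

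Low genes were removed by filterByExpr, libraries were scaled by TMM, and edgeR 4.0.16 (quasi-likelihood, robust, a coefficient per group, all 10 libraries) was run on 16340 genes. Adjusted p-values (Benjamini-Hochberg, over every tested gene) were read at 0.05. Standard errors are |log2 fold change| / √F. The steps were tested on simulated data. Exon lengths, coordinates and UTRs came from GENCODE M21 (GRCm38). Ratios of raw counts were compared by exact permutation tests. Log2 CPM for the pattern comparison used a prior count of 2.

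The genes, lists and tests were chosen with earlier results of these data known. All 10 genes are named, with up to 4 genes of smallest p per list and comparison and the 3 nearest genes by r. Some genes that this rule names are not reported here. Top2b was added after its overlap was found. A gene named by the rule in 1 comparison with wild type has its value given in the other too. In each of 2 lists 1 gene was not analysed here, and 2 genes were matched through a synonym. Alternatives were DESeq2 1.42.0, its size factors in edgeR, limma-voom (limma 3.58.1), testing without the low-count filter or with one of 1 CPM in at least 3 libraries, fits on the compared groups alone, a covariate for sex (2 of 10 libraries female by counts), library totals without mitochondrially encoded and red blood cell genes, a replicate block and leaving out each library. R 4.3.3, Python, numpy, pandas and matplotlib were also used. Total counts of 21762668 to 39517946 per library limit precision for genes of low counts, such as Rarb.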

Additional observations from a re-analysis of the deposited data

How the results depend on the processing

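Over 240 fits of the 30 gene results that kept every library, 231 kept their direction and side of the threshold, 3 lost a call (for no-Cre against wild type, Cyp26b1 with no filter and with a sex covariate, and Aldh1a2 with no filter), 5 gained one (Dhrs3 in 4, below, and Crabp2 for no-Cre against wild type with a filter of 1 CPM) and 1 changed sign. Between Lin28a-induced and no-Cre libraries 1 gene of 10 was called, and 2 under DESeq2, with no filter, with a filter of 1 CPM and with only the groups compared, Dhrs3 being the added one. Leaving out 1 library gave 0 to 2. Over all genes the 476 calls became 993 (DESeq2), 1791 (only the groups compared) or 303 (sex covariate), and the cause was not tested. With 1 library left out they ran from 104 to 1482, moving by over 1.5 times without every no-Cre or Lin28a-induced replicate (104 to 304) and without wild-type replicate 2 (1482). Calls among receptors and cofactors became 1 (DESeq2) or 2 (only the groups compared) in place of 0, and among tail bud genes 4 (only the groups compared) in place of 0. Against wild type, calls among tail bud genes became 10 (limma-voom) for Lin28a-induced, and 8 (limma-voom) or 3 (no filter, and only the groups compared) for no-Cre libraries, in place of 5. Leaving out 1 library gave 5 to 7 of 10 genes for Lin28a-induced (main value 5) and 3 to 7 for no-Cre libraries (main value 6), lowest without no-Cre replicate 6.

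Sign changes touched differences near 0. Cyp26a1, Lin28a-induced against no-Cre, ran from -0.0483 (without Lin28a-induced replicate 2) to 0.0716 when 1 library was left out. Rarg, Lin28a-induced against wild type, ran from -0.137 to 0.0402 and was positive at 0.00861, 0.0353 and 0.0402 without Lin28a-induced replicate 3, wild-type replicate 1 and wild-type replicate 3. Rdh10, no-Cre against wild type, was 0.0131 with no filter and ran from -0.101 to 0.127 with 1 library left out, positive at 0.00502 without no-Cre replicate 7 and at 0.127 without wild-type replicate 2. Dhrs3, no-Cre against wild type, ran from -0.127 to 0.0252, that upper value without wild-type replicate 3.

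Replicate numbers 2 and 3 occur in both the Lin28a-induced and the wild-type group, and no labels tie them. Deviations from the group mean correlated at -0.03 and -0.08 over 16340 genes in same-numbered libraries. In differently numbered ones the values were -0.02 and 0.13. So few values cannot exclude a pairing, and the main fit treated the libraries as unpaired. With a replicate block on those 4 libraries 3 of the 10 genes were called, against 2 in the same 4 libraries without the block, a setting chosen after seeing the data; fewer libraries enter both. Calls over all genes were 3596 with the replicate block and 2651 without, in place of 8050, among metabolism genes 5 without it in place of 9, among receptors and cofactors 4 and 3 in place of 8, among response genes 3 and 3 in place of 6, and among tail bud genes 3 and 2 in place of 5. Counts of 11 to 62 limit what Rarb can show.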
